A study of Mus musculus with 2 samples.

Results

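The aryl hydrocarbon receptor pathway was followed in cultured mouse keratinocytes with and without deletion of Pp6, the catalytic subunit gene of protein phosphatase 6. The 7 members, of 47719 genes in the table, were Ahr, its partner Arnt, the inhibitors Ahrr and Tiparp, and the enzyme genes Cyp1a1, Cyp1b1 and Aldh3a1. They were chosen by name, and all 7 were found. Cyp1b1 drew attention because of its difference in these same libraries, so its values are a description, and the question was whether it differed alone or together with other targets of the receptor.

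RNA was sequenced from 1 library of K5.Pp6fl/fl cells and 1 library of Pp6fl/fl cells. Both carry the floxed Pp6 alleles on the C57BL/6J background. In K5.Pp6fl/fl mice the alleles are deleted by a recombinase under control of the promoter of keratin 5, a gene of the basal epidermal layer. The cells came from tails of mice aged 8 weeks and were grown for 3 days. The labels do not give the number of mice behind each culture, and with 1 library per genotype there is no replicate spread to test against. The intervals below (95%) therefore cover counting error only.

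The receptor encoded by Ahr is a transcription factor of the bHLH-PAS family that rests in the cytosol with HSP90 and co-chaperones. When it binds a ligand, such as a polycyclic hydrocarbon, dioxin or a tryptophan photoproduct, it enters the nucleus, pairs with ARNT and binds DNA at xenobiotic response elements with the core GCGTG. Cyp1a1, Cyp1b1, Ahrr and Tiparp are standard targets, and the last 2 feed back on the receptor. In skin the receptor is known for the response to pollutants and ultraviolet light and for a role in epidermal barrier formation.

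The sequence before the start site is shown for the P450 genes of the pathway, which differ in these libraries, and for Tiparp, the member target with the most reads. Each run holds the 250 bases before the start site, 5′ to 3′ on the gene's strand, from RefSeq on GRCm38.p6. Capitals mark the core GCGTG on either strand, which reads CACGC where it lies on the opposite strand. The windows are chr17:79715062-79715311 (minus strand) for Cyp1b1, chr9:57697363-57697612 (plus strand) for Cyp1a1 and chr3:65528197-65528446 (plus strand) for Tiparp.
Cyp1b1: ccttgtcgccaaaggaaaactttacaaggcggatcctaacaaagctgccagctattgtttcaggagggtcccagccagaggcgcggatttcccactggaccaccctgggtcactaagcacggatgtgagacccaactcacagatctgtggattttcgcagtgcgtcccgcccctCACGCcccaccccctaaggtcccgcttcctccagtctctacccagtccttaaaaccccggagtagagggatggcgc
Cyp1a1: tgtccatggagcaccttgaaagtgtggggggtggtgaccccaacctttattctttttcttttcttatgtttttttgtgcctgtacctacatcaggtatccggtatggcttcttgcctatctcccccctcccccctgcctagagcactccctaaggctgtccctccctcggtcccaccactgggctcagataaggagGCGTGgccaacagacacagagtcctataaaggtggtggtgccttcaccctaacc
Tiparp: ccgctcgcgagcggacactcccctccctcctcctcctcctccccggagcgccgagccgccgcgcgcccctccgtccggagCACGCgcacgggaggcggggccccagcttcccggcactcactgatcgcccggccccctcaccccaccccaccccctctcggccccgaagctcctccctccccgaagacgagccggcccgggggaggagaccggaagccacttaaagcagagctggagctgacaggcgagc

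The core was found once in each of these windows, beginning 76 bases before the start site in Cyp1b1, 54 in Cyp1a1 and 170 in Tiparp. The Arnt window held it once and the Ahrr window 3 times, so 5 of 5 members with a RefSeq window held it. Among lists described below, it was in 5 of 15 windows of other receptor-responsive genes and in 0 of 5 windows of epidermal genes linked to the receptor. Of 27025 genes with a window, counting 1 window per gene, 28.2% held it on either strand. The member windows were 53.6 to 75.2% G and C. The longer form TNGCGTG was found only in the Ahrr window among these 5, against 4.16% of all genes. In Cyp1b1, Cyp1a1 and Arnt the core followed another G, as GGCGTG, letters that overlap a form of the GC box. That form was in 13.5% of all genes. Such a match describes letters in the window and shows no binding, and the windows of Cyp1b1, which was over 3-fold apart, and of Tiparp, which was nearly equal, each held 1 core. Sequence farther from the start site was not searched, so elements outside the windows are not counted.

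The targeted gene was examined first. Ppp6c, the name of Pp6 in the table, had 707 reads in K5.Pp6fl/fl cells and 1074 in Pp6fl/fl cells, or 40.7 and 55.5 CPM (counts per 1e6 reads on library sizes scaled by the TMM method). The fold was 0.733 (0.666 to 0.807), so the lower level was in the library labelled as the deletion. By the deposited FPKM the gene was at 16.8 in K5.Pp6fl/fl cells and 30.6 in Pp6fl/fl cells, a ratio of 0.548. The direction was the same, but the size of the difference depends on the measure. Reads from cells that kept the gene, or from outside the deleted part, would also count here. The libraries held 17361271 estimated reads for K5.Pp6fl/fl and 19374773 for Pp6fl/fl. Among 12326 genes at 1 CPM or more in a library, the median log2 ratio was -0.01.

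Cyp1b1 was the only member at least 2-fold apart, and Cyp1a1 was the only other member whose counting interval left 1. The receptor, its partner and the feedback enzyme gene Tiparp were close to equal in the libraries. A gene counted as at least 2-fold apart when its log2 ratio, after adding 0.5 CPM to both values, was at least 1 in size, its larger value was at least 1 CPM and its interval excluded 1. Under this rule 1 of the 6 members at 1 CPM or more was higher in K5.Pp6fl/fl cells, against 0.811% of all genes at that level, and 0 were lower, against 0.195%. The higher count is Cyp1b1 itself, which the choice of members fixed. Intervals lay above 1 for 2 of the 6 (16.6% of all genes) and below 1 for 0 of the 6 (17.4% of all genes). Ahrr was below 1 CPM in both libraries and is not among the 6.

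Ahr (ENSMUSG00000019256), the receptor, had 435 reads in K5.Pp6fl/fl cells and 451 in Pp6fl/fl cells. At 25 and 23.3 CPM its fold was 1.07 (0.939 to 1.23). Arnt (ENSMUSG00000015522), which also pairs with the hypoxia-inducible factors, had 1606 reads in K5.Pp6fl/fl cells and 1795 in Pp6fl/fl cells. At 92.4 and 92.8 CPM its fold was 0.996 (0.931 to 1.07). Both intervals include 1, and both keep the receptor and its partner within 1.23-fold of equality.

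Of the inhibitors, Tiparp (ENSMUSG00000034640), an enzyme that ADP-ribosylates the receptor and limits its activity, was abundant. It had 2190 reads in K5.Pp6fl/fl cells and 2331 in Pp6fl/fl cells, or 126 and 120 CPM, a fold of 1.05 (0.986 to 1.11). Ahrr (ENSMUSG00000021575), the repressor that competes with the receptor for ARNT, had 7 reads in K5.Pp6fl/fl cells and 9 in Pp6fl/fl cells. Its fold of 0.866 had an interval from 0.274 to 2.61, so at this depth a 2-fold difference in Ahrr was not detectable.

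The enzyme genes differed from one another. Cyp1b1 (ENSMUSG00000024087), a cytochrome P450 that oxidises polycyclic hydrocarbons, oestradiol and retinoids, had 241 reads in K5.Pp6fl/fl cells and 85 in Pp6fl/fl cells. At 13.9 and 4.39 CPM it was 3.16-fold higher (2.46 to 4.09), and its log2 ratio of 1.55 ranked 18 among the 12326 genes at 1 CPM or more. Cyp1a1 (ENSMUSG00000032315), the P450 most used as a readout of the receptor, had 57 reads in K5.Pp6fl/fl cells and 39 in Pp6fl/fl cells. At 3.28 and 2.02 CPM it was 1.63-fold higher (1.06 to 2.51), and its log2 ratio of 0.59 ranked 452.

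Cyp1a1 thus lay on the same side as Cyp1b1, short of 2-fold, with an interval whose upper end just overlaps the lower end of that of Cyp1b1. The near relative Cyp1a2 had 0 reads in K5.Pp6fl/fl cells and 1 in Pp6fl/fl cells, and the sum of Cyp1a1 and Cyp1a2 was 1.59-fold higher (1.04 to 2.44). Aldh3a1 (ENSMUSG00000019102), an aldehyde dehydrogenase induced through the receptor in liver, lay on the other side. It had 103 reads in K5.Pp6fl/fl cells and 145 in Pp6fl/fl cells, a fold of 0.791 (0.608 to 1.03) that includes 1.

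**Figure D1:**
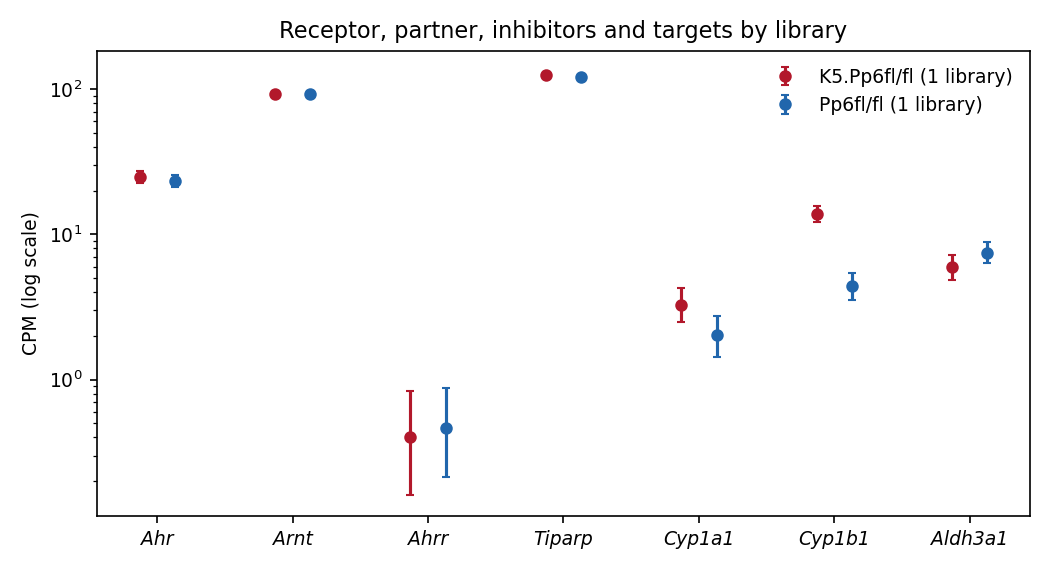
Level of each member in CPM (log scale) in the K5.Pp6fl/fl library (red, left of each pair) and the Pp6fl/fl library (blue), with bars for the exact Poisson 95% interval of the reads. Cyp1b1 stands at 13.9 and 4.39 CPM with separate bars, while Ahr, Arnt and Tiparp are nearly level and Ahrr lies below 1 CPM.

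Levels were set side by side between genes on the deposited FPKM scale, which adjusts for length. FPKM and count ratios differed for some genes, such as Ahrr at 1.31 by FPKM and 0.866 by counts. The adjustment was therefore not 1 fixed length per gene in both libraries, and the FPKM intervals leave out its error. In K5.Pp6fl/fl cells the order was Tiparp (33.8 FPKM), Arnt (33.1), Ahr (4.78), Aldh3a1 (4.19), Cyp1b1 (2.88), Cyp1a1 (1.42) and Ahrr (0.137). In Pp6fl/fl cells it was Tiparp (32.6 FPKM), Arnt (31.8), Aldh3a1 (5.28), Ahr (4.44), Cyp1b1 (0.909), Cyp1a1 (0.869) and Ahrr (0.104). The counting intervals of Tiparp and Arnt overlapped in both libraries, as did those of Ahr and Aldh3a1, so neither pair has an order beyond counting error. Cyp1b1 and Cyp1a1 overlapped in Pp6fl/fl cells, at 0.726 to 1.12 FPKM for Cyp1b1 and 0.618 to 1.19 FPKM for Cyp1a1. In K5.Pp6fl/fl cells they did not, at 2.53 to 3.27 FPKM for Cyp1b1 and 1.08 to 1.84 FPKM for Cyp1a1. The ratio of Cyp1b1 to Cyp1a1 was 2.03 in K5.Pp6fl/fl cells and 1.05 in Pp6fl/fl cells. Arnt stood at 6.92 times Ahr in K5.Pp6fl/fl cells and 7.17 times Ahr in Pp6fl/fl cells.

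The authors' deposited table lists Cyp1b1 at a log2 fold change of 1.56, K5.Pp6fl/fl relative to Pp6fl/fl, at FDR 1.42e-18, and marks it significant. The authors' deposited table lists Cyp1a1 at 0.65 on the same log2 scale, at FDR 0.134, and the other 5 members values from -0.33 to 0.11, none marked significant. All 170 genes marked significant there have a log2 fold change of at least 1 in size and an FDR under 0.05. Of the 13003 genes given a direction in the authors' deposited table, 1.05% are marked significant and up. These p-values rest on 1 library per genotype.

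Among other genes known to respond to the receptor, several were higher by less than 2-fold, and the classical detoxification gene Nqo1 was lower. Of 20 listed genes 12 were at 1 CPM or more, and none was 2-fold apart (of all genes, 0.811% were higher and 0.195% lower). The interval lay above 1 for 6 of the 12 (16.6% of all genes), below 1 for 1 (17.4% of all genes) and across 1 for 5. The median log2 ratio was 0.24, against -0.01 over all genes at that level, and it was 0.06 over all 20 genes with no floor. The 20 include 2 genes with 0 reads in both libraries, which enter at a log2 ratio of 0, and others with few reads. Many of these genes are also under other signals, abundant genes have narrow intervals, and the list was chosen with earlier results known. The most abundant was Serpinb2, a protease inhibitor induced by dioxin in human keratinocytes, at 1553 FPKM in K5.Pp6fl/fl cells and 1048 FPKM in Pp6fl/fl cells, a CPM fold of 1.48 (1.46 to 1.5). Nfe2l2, which encodes the antioxidant regulator NRF2, was at 1.02 (0.983 to 1.07). The amino acid transporter gene Slc7a5 was at 0.968 with an interval that includes 1, from 308 CPM in K5.Pp6fl/fl cells and 319 CPM in Pp6fl/fl cells.

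The remaining genes of this list with an interval away from 1 are named after their values were seen, including Ugt1a6b and Scin under 1 CPM. Ugt1a6b had 10 reads in K5.Pp6fl/fl cells and 2 in Pp6fl/fl cells, a fold of 4.84 (1.19 to 52.25). Scin had 12 reads in K5.Pp6fl/fl cells and 4 in Pp6fl/fl cells, a fold of 3.34 (1.01 to 14.2). The other genes under that floor had intervals that include 1 or no reads. Ptgs2, the inducible cyclooxygenase, had 7040 reads in K5.Pp6fl/fl cells and 4643 in Pp6fl/fl cells, a fold of 1.69 (1.63 to 1.75). Ugt1a6a, a glucuronosyltransferase of the classical receptor battery, had 104 and 67 reads in K5.Pp6fl/fl and Pp6fl/fl cells, a fold of 1.74 (1.26 to 2.39). Because Ugt1a genes share their last exons, the sum of all 9 is the safer value, at 1.79-fold higher (1.36 to 2.38). The glutathione transferase gene Gsta1 was 1.36-fold higher (1.11 to 1.68), and its sum with the near copy Gsta2 was 1.34-fold higher (1.10 to 1.64). Nedd9, a scaffold protein gene, was 1.23-fold higher (1.16 to 1.31) and Xdh, xanthine dehydrogenase, 1.22-fold (1.14 to 1.31). Nqo1, the quinone reductase of the same battery, had 532 reads in K5.Pp6fl/fl cells and 672 in Pp6fl/fl cells, a fold of 0.881 (0.785 to 0.989). By counting intervals alone, Cyp1a1, the Ugt1a sum and Gsta1 lay above 1, and the interval of Aldh3a1 lay across 1. Nqo1 lay just below 1, with an upper end of 0.989. These intervals leave out variation between cultures, so whether the battery differs in side was not tested.

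**Figure D2:**
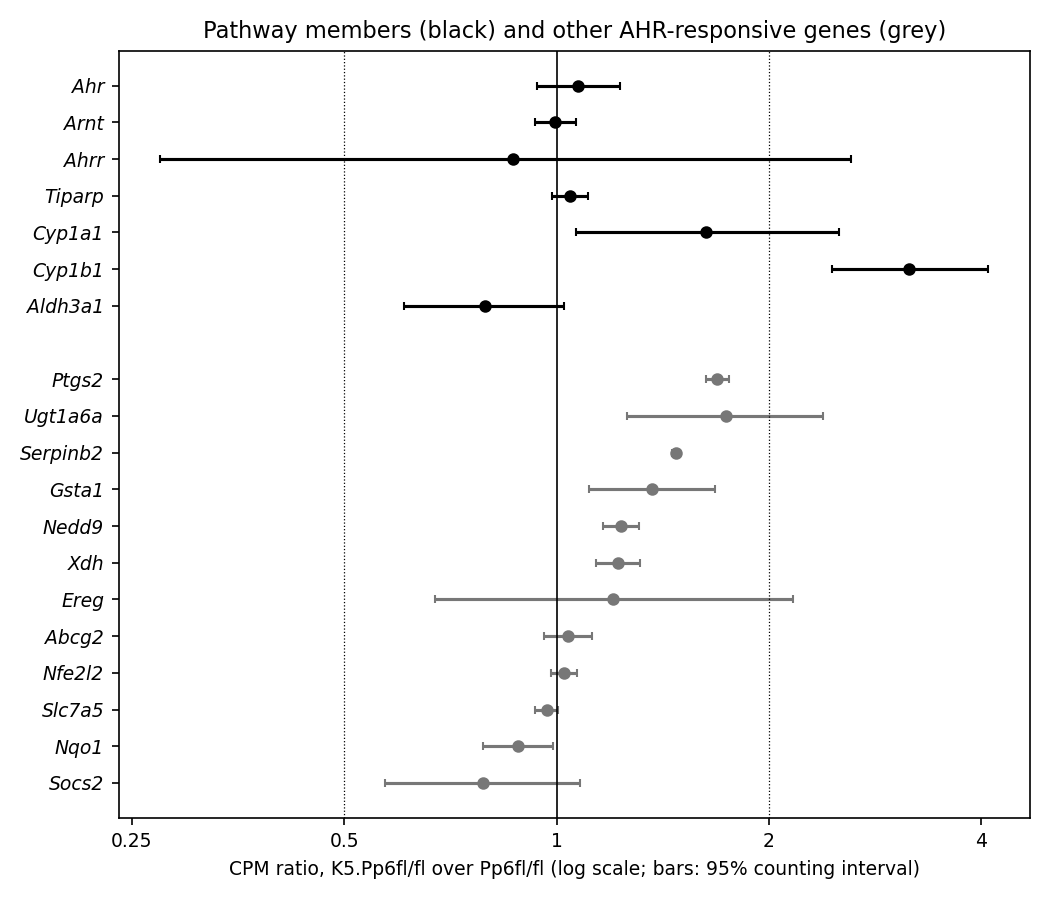
CPM ratio, K5.Pp6fl/fl over Pp6fl/fl, on a log scale (bars, 95% counting intervals) for the 7 members in black and for the 12 other receptor-responsive genes at 1 CPM or more in grey. Cyp1b1 at 3.16-fold is the only point whose interval lies beyond the dotted 2-fold line.

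Chaperones that hold the receptor in the cytosol were abundant and at most 1.15-fold apart. Intervals, narrow in abundant genes, lay above 1 for all 3 genes reported (16.6% of all genes) and below 1 for 0 (17.4% of all genes). All 3 genes reported were at 1 CPM or more, with a median log2 ratio of 0.12. None was 2-fold apart (of all genes, 0.811% were higher and 0.195% lower). Hsp90ab1 was at 1.02-fold (1.01 to 1.04), Hsp90aa1 at 1.15-fold (1.13 to 1.17) and Ptges3, the co-chaperone p23, at 1.09-fold (1.04 to 1.14).

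Enzymes that make or remove tryptophan-derived ligands were scarce. Of 10 listed genes 6 had 0 reads in both libraries, a count that allows up to 0.173 CPM in K5.Pp6fl/fl cells and 0.155 CPM in Pp6fl/fl cells (3 reads). Only Afmid, kynurenine formamidase, reached 1 CPM, at a fold of 0.732 (0.502 to 1.06). Il4i1, an amino acid oxidase that produces receptor ligands from tryptophan, had 17 reads in K5.Pp6fl/fl cells and 6 in Pp6fl/fl cells. Its fold of 3.15 had a wide interval (1.19 to 9.77), and its larger value of 0.978 CPM was under the 1 CPM floor. Kynu, kynureninase, had 0 reads in K5.Pp6fl/fl cells and 1 in Pp6fl/fl cells.

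P450 enzymes need electrons from partner proteins, and these genes were equal or slightly lower. None of 5 was 2-fold apart (of all genes, 0.811% were higher and 0.195% lower), and the median log2 ratio was 0.00. Cyb5a, Cyb5r3 and Cyb5r1, of the cytochrome b5 system, were at 1.01, 1.0 and 1.03, each with an interval that includes 1. Por, the reductase that serves microsomal P450s, had 1850 reads in K5.Pp6fl/fl cells and 2678 in Pp6fl/fl cells, a fold of 0.769 (0.724 to 0.816), and Cyb5b was at 0.938 (0.897 to 0.981). Both are named after their values were seen, and they are the 2 of the 5 with an interval below 1 (17.4% of all genes). Cyp1b1 and Cyp1a1 were thus higher in K5.Pp6fl/fl cells while the gene of their electron donor was lower.

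Among all 94 cytochrome P450 genes, 17 were at 1 CPM or more. Of these, 2 were at least 2-fold higher (0.811% of all genes) and 0 at least 2-fold lower (0.195% of all genes). The higher count includes Cyp1b1, which drew attention because of its difference in these libraries, so it is not set by the family alone. The other was Cyp2b10, a P450 that responds to the receptor CAR in liver. It had 446 reads in K5.Pp6fl/fl cells and 198 in Pp6fl/fl cells, a fold of 2.51 (2.12 to 2.98). The Cyp2b genes resemble each other, and the sum of all 5 was 2.54-fold higher (2.15 to 3.02). Cyp26b1, which breaks down retinoic acid, was 1.45-fold higher (1.29 to 1.62), and Cyp4v3, a fatty acid hydroxylase, was at 1.48 (0.722 to 3.12). The median log2 ratio of the 17 genes was 0.22, and intervals lay above 1 for 4 of the 17 (16.6% of all genes) and below 1 for 0 (17.4% of all genes). The 4 include the members Cyp1b1 and Cyp1a1. Cyp1b1 was thus not the only P450 gene past the rule.

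**Figure D3:**
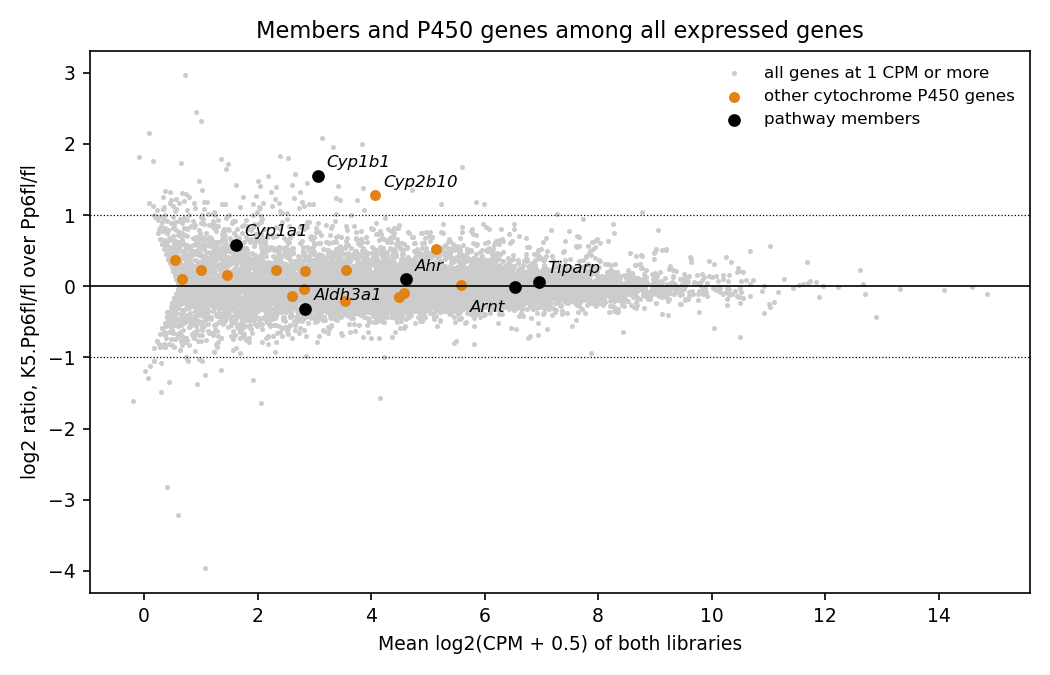
Log2 ratio of K5.Pp6fl/fl over Pp6fl/fl against the mean log2(CPM + 0.5) of both libraries, for the 12326 genes at 1 CPM or more (grey), the members among them (black) and the other P450 genes (orange). Cyp1b1 and Cyp2b10 lie above the dotted line at a log2 ratio of 1, and Cyp1a1 lies below it at 0.59.

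The aldehyde dehydrogenase genes show where Aldh3a1 stands in its superfamily. Of 21 genes 16 were at 1 CPM or more, with a median log2 ratio of 0.11. Intervals lay above 1 for 7 of the 16 (16.6% of all genes) and below 1 for 0 (17.4% of all genes). Aldh1a3, which makes retinoic acid, was the only one at least 2-fold higher (0.811% of all genes), with 335 reads in K5.Pp6fl/fl cells and 89 in Pp6fl/fl cells (4.19-fold, 3.31 to 5.36). Next were Aldh3b3 at 2.34 (1.05 to 5.56, from 21 and 10 reads in K5.Pp6fl/fl and Pp6fl/fl cells), short of the rule once 0.5 CPM was added, and Aldh1l1 at 1.55 (1.22 to 1.98). Aldh3b2 was at 1.51 (1.17 to 1.96) and Aldh1l2 at 1.46 (1.32 to 1.61). Aldh3a1 had the lowest log2 ratio of the 16, at -0.31.

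Of 6 epidermal genes linked to the receptor, 5 had an interval above 1 (16.6% of all genes) and 2 were at least 2-fold higher (0.811% of all genes). The median log2 ratio was 0.54, and the sixth gene, hornerin, Hrnr, was at 1.07-fold with an interval that includes 1 (0.845 to 1.37). The 2 past the rule were loricrin, Lor, with 186 reads in K5.Pp6fl/fl cells and 88 in Pp6fl/fl cells, and the filaggrin relative Flg2, with 35 reads in K5.Pp6fl/fl cells and 10 in Pp6fl/fl cells. Ovol1, a transcription factor through which the receptor acts on filaggrin in human keratinocytes, was 1.36-fold higher (1.26 to 1.46), and filaggrin, Flg, 1.68-fold (1.16 to 2.46). Hrnr, Ovol1 and Flg are named here because of their values. Cornified envelope genes were already known to be higher in these libraries when the list was chosen, so it adds no independent support.

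**Figure D4:**
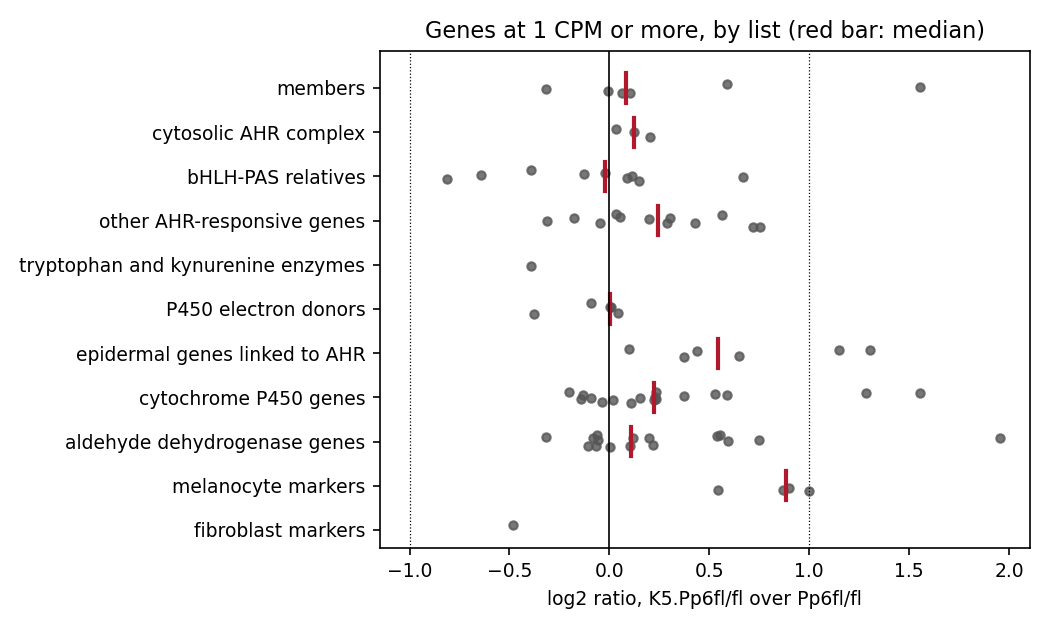
Log2 ratio of K5.Pp6fl/fl over Pp6fl/fl for each gene at 1 CPM or more, by list, with a red bar at the median of lists with over 2 such genes and dotted lines at -1 and 1. The member median is 0.08 with Cyp1b1 far to the right, and the melanocyte markers all lie above 0.

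Markers of other cell types were checked because a minor cell type can contribute a scarce transcript. Both libraries were dominated by keratinocyte markers, with Krt14 at 20584 FPKM in K5.Pp6fl/fl cells and 22055 FPKM in Pp6fl/fl cells, and Krt5 at 0.961-fold. All 6 melanocyte markers were detected, summing to 15.4 CPM in K5.Pp6fl/fl cells and 7.70 CPM in Pp6fl/fl cells, 2.0-fold higher (1.63 to 2.46). Their most abundant genes were Tyrp1, at 2.67 FPKM in K5.Pp6fl/fl cells and 1.45 FPKM in Pp6fl/fl cells, and Pmel, at 2.65 FPKM in K5.Pp6fl/fl cells and 1.19 FPKM in Pp6fl/fl cells. These levels are close to those of Cyp1b1, and the part of melanocytes in the Cyp1b1 difference was not tested. In bulk RNA, more cells of a type and more RNA per cell cannot be told apart.

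Fibroblasts are another cell type that expresses Cyp1b1. The 7 fibroblast markers summed to 2.70 CPM in K5.Pp6fl/fl cells and 3.46 CPM in Pp6fl/fl cells, a fold of 0.781 (0.526 to 1.15). Most of this was Thy1, and the other 6, with Lum at 0 reads in both libraries and Pdgfra the highest of them, held 16 and 15 reads in K5.Pp6fl/fl and Pp6fl/fl cells. Markers of smooth muscle or pericytes, led by Acta2 and Tagln, summed to a fold of 0.926 (0.790 to 1.08), with Rgs5 at 0 in both libraries. The leading markers went opposite ways, with Acta2 at 0.85 (0.714 to 1.01) and Tagln at 1.57 (1.04 to 2.41), and their part in the Cyp1b1 difference was not tested. The 4 endothelial markers, with Pecam1 and Tek highest, held 26 reads in K5.Pp6fl/fl cells and 19 in Pp6fl/fl cells. Sebocyte markers, mostly Soat1 with Elovl3 next, held 48 reads in K5.Pp6fl/fl cells and 39 in Pp6fl/fl cells, with Awat1 and Fa2h at 0. Leukocyte markers held 1 read of Tyrobp in K5.Pp6fl/fl cells and 0 in Pp6fl/fl cells, with Ptprc at 0 in both.

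With 2 libraries, likeness to Cyp1b1 can only mean a like level in each. By distance over the log2(CPM + 0.5) values of both libraries, the 5 nearest genes were Scgb2b27 (distance 0.29), S100a8 (0.32), Lor (0.36), Bcl2l15 (0.39) and Tmem45a (0.45). Their folds were 2.94 for Scgb2b27, 2.35 for S100a8, 2.35 for Lor, 4.66 for Bcl2l15 and 2.33 for Tmem45a. None of the other members was among them. Scgb2b27 belongs to a family of similar genes among which reads may be split, so its own ratio is uncertain.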

How the data were processed

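Gene-level values came from 1 table of 47719 genes. Per the submitters' processing notes, RSEM, edgeR and the build mm8 were used, with no role or version given. The authors deposited estimated counts multiplied by 1 constant per library. Dividing by that step made 97.4% of the values under 100 reads whole, within 0.01 reads, in each library. The reads were rounded for intervals and scaling. The authors deposited FPKM values per gene, and the table holds log2 fold changes, p-values and FDR of the authors' comparison, per the file headers.

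Symbols were matched by Ensembl ID for 47219 genes. The named build differs from the reference, so the only coordinates given are those of the promoter windows, on GRCm38.p6. Library sizes were scaled by TMM (edgeR 4.0.16, R 4.3.3), with DESeq2 1.42.0 size factors as an alternative. Ratios of counts have exact conditional binomial intervals (scipy 1.17.1), single counts exact Poisson intervals. These intervals leave out variation between cultures, and PCR reads lacking molecular identifiers are not separate molecules. The kit named in the labels does not mark strand; reads of the opposite-strand gene 4931440P22Rik within Tiparp, 22 in K5.Pp6fl/fl and 8 in Pp6fl/fl cells, cannot be fully separated. The procedure was tested on simulated data with counting error only, in which the altered genes all had a higher mean level than Cyp1b1. That test therefore does not cover variation between cultures, or recovery of a difference in genes as scarce as Cyp1b1 or Cyp1a1.

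The members and lists were chosen with earlier results of these data known. 1 gene of the chaperone list is not reported here. Named genes are all members, Ppp6c, pathway-list genes past the 2-fold rule or otherwise the 3 with the highest FPKM, the 5 largest log2 ratios of each enzyme superfamily, the 2 most abundant markers per cell type, and the 5 genes nearest to Cyp1b1. Alternatives covered scaling, pseudocounts of 0.1 and 2 CPM, floors, FPKM and the columns as deposited.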

Additional observations from a re-analysis of the deposited data

How the results depend on the processing

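Cyp1b1 was the only member at least 2-fold higher, and no member was at least 2-fold lower, under all 8 alternatives run. Its log2 ratio ran from 1.02 with FPKM and a pseudocount of 1 FPKM to 1.64 with a pseudocount of 0.1 CPM. With a floor of 5 CPM, which removes Cyp1a1 by construction, 1 member had an interval above 1. Of 56 log2 ratios of single members, 55 moved by less than the distance from the middle to the end of their log2 counting interval. Arnt changed sign with FPKM (0.06) and with the columns as deposited (0.01), both close to 0. Ahrr changed sign with FPKM (0.04), a value held near 0 by adding 1 FPKM to 0.137 in K5.Pp6fl/fl and 0.104 in Pp6fl/fl cells. Without it the Ahrr ratio was 1.31 by FPKM and 0.866 by counts, so its direction depends on the measure. Of 55 list medians, 52 stayed within the typical counting interval of their genes. The median of the other receptor-responsive genes was 0.06 with no floor, and by FPKM that of the tryptophan enzymes was 0.34 and that of the electron donors -0.08. The counts over all genes, higher and lower, were 173 and 57 with a pseudocount of 0.1 CPM, 34 and 5 with 2 CPM, and 49 and 4 with a floor of 5 CPM. With FPKM they were 232 and 140. Calls by FPKM, for members and for all genes, used a floor of 1 FPKM and required no counting interval. The FPKM counts therefore follow a looser rule and are not the same count under another measure. For Cyp1b1 the FPKM ratio without a pseudocount was 3.17, so the lower value comes from adding 1 FPKM to 2.88 and 0.909 FPKM. The tryptophan median of -0.39 in the main setting was Afmid alone. With FPKM the floor also admitted Il4i1, at 1.60 FPKM in K5.Pp6fl/fl cells, so that median is over another set of genes. The cause of the remaining FPKM differences was not tested. No paired analysis was possible because each genotype has 1 library. Depth limits Ahrr, Il4i1 and most tryptophan enzymes.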

Other observations

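The bHLH-PAS relatives of the receptor, which include clock and hypoxia factors, went both ways. Of 16 genes 9 were at 1 CPM or more, with 3 intervals above 1 (16.6% of all genes) and 3 below (17.4% of all genes). The median log2 ratio was -0.02, and none was 2-fold apart (of all genes, 0.811% were higher and 0.195% lower). Hif1a, the hypoxia factor that also pairs with ARNT, was at 1.08-fold (1.05 to 1.11), and the clock activator gene Clock at 0.984 (0.933 to 1.04). Per1, a repressor of the circadian clock, had 2507 reads in K5.Pp6fl/fl cells and 3662 in Pp6fl/fl cells, a fold of 0.762 (0.724 to 0.802).

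Other clock genes are named after their values were seen. Per2, a relative of Per1, had 51 reads in K5.Pp6fl/fl cells and 107 in Pp6fl/fl cells, a fold of 0.531 (0.372 to 0.747), short of the 2-fold rule. Npas2, a relative of Clock, was at 0.589 (0.382 to 0.895) by counts but at 1.28 by FPKM, so its direction depends on the measure. Arntl, the partner of Clock, was at 1.11 (1.01 to 1.22). The hypoxia factor gene Epas1 had 48 reads in K5.Pp6fl/fl cells and 30 in Pp6fl/fl cells, a fold of 1.78 (1.11 to 2.91).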
